A study of Mus musculus with 4 samples.

Results

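Knockout-only promoter peaks are stretches of open chromatin at gene starts that were called in the liver of Mertk knockout mice and overlapped no peak called in wild-type liver. They were chosen from 2 deposited peak lists: a knockout peak on chromosomes 1 to 19, X or Y was taken if the authors' annotation assigned it to at least 1 gene as a promoter peak and if no wild-type peak overlapped it by 1 bp or more. The rule took 3669 of 17419 knockout promoter peaks (21.1%), out of 178621 peaks in both lists together. The reverse rule took 953 of 14691 wild-type promoter peaks (6.49%), at 934 of 14854 genes (6.29%). The 3669 peaks were assigned to 3425 genes, which were 20.1% of the 17006 genes with a knockout promoter peak. Because the rule itself compares the genotypes, all counts of these peaks per gene list or family below describe how the chosen peaks are spread, and none was tested.

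Both groups were livers after bile duct ligation, an operation that dams up bile in the liver and is used to produce fibrosis, and they differed in genotype, wild type against Mertk knockout. Mertk encodes a receptor tyrosine kinase with which macrophages engulf dying cells. Each genotype had 1 open chromatin (ATAC) library, made by droplet Multiome (10x Genomics), which reads RNA and open chromatin of the same nucleus, so there was no replicate, and every difference describes 2 libraries. There was no unligated liver among the groups used here, and the labels give neither the animals per library, their sex, the time after ligation nor the deleted part of Mertk.

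In an ATAC library a transposase cuts DNA that is not wrapped in nucleosomes, and sites cut often in many nuclei are called as peaks. Promoters of genes that every cell uses are mostly rich in CpG dinucleotides and are open in most cell types. Promoters of genes that serve a specialised cell, such as the albumin gene in hepatocytes, are often poor in CpG and open mainly in that cell type. In the liver, hepatocytes make bile acids and plasma proteins and break down drugs, cholangiocytes line the bile ducts, stellate cells store vitamin A and lay down matrix in fibrosis, and Kupffer cells are the resident macrophages.

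The starts of 8 genes are printed as examples. Each line is the RefSeq promoter window of the gene, 250 bases before to 50 after the annotated start, in GRCm38.p6 and 5′ to 3′ along the gene's strand, and each start lies in a knockout-only promoter peak. Capitals mark letters that match the motifs of the liver factors HNF4, FOXA or C/EBP, or a TATA box. The 8 were taken from genes of the hepatocyte, bile acid and stellate cell lists whose peak centre lay closest to the start, so they do not stand for the members at large. They serve bile acid synthesis (Cyp8b1, Akr1d1), bile acid uptake (Slc10a1), lipoprotein (Apoa1), clotting (Fgb), drug oxidation (Cyp2c29) and the stellate cell (Reln, Tcf21). The windows lie at chr9:121916256-121916555 (Cyp8b1, minus strand), chr6:37529923-37530222 (Akr1d1, plus strand), chr12:80968030-80968329 (Slc10a1, minus strand), chr9:46228380-46228679 (Apoa1, plus strand), chr3:83049814-83050113 (Fgb, minus strand), chr19:39286835-39287134 (Cyp2c29, plus strand), chr5:22344656-22344955 (Reln, minus strand), chr10:22820094-22820393 (Tcf21, minus strand).
Cyp8b1: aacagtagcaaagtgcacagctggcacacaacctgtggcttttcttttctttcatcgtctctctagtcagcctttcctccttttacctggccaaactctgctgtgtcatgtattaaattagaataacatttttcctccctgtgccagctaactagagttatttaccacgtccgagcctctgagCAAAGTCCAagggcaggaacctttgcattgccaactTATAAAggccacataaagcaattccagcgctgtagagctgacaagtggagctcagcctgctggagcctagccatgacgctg
Akr1d1: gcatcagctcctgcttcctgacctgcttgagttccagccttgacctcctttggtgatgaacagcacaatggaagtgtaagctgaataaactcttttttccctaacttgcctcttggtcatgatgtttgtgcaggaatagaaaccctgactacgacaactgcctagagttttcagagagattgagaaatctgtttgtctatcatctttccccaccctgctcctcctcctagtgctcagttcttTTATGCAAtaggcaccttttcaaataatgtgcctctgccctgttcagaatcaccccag
Slc10a1: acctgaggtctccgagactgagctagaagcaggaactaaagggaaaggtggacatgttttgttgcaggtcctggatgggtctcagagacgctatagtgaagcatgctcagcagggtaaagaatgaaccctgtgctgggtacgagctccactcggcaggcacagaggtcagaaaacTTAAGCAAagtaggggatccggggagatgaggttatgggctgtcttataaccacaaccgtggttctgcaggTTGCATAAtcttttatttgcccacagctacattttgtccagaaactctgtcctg
Apoa1: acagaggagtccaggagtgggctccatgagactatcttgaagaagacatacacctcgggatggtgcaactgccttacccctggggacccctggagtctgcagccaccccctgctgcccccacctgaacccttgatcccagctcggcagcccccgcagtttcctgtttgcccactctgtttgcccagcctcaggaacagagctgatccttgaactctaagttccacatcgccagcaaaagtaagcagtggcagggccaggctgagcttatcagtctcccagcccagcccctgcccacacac
Fgb: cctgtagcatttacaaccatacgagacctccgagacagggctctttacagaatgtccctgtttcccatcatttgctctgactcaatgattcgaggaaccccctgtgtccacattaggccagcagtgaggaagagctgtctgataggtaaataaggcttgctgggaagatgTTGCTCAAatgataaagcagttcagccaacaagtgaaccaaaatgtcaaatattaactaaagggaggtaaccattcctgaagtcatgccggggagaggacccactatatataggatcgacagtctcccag
Cyp2c29: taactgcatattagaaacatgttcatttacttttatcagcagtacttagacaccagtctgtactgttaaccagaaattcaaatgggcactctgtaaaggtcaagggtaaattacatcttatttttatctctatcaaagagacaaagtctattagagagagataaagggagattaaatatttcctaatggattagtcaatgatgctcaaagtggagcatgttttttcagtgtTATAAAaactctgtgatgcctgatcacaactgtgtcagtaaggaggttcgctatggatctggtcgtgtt
Reln: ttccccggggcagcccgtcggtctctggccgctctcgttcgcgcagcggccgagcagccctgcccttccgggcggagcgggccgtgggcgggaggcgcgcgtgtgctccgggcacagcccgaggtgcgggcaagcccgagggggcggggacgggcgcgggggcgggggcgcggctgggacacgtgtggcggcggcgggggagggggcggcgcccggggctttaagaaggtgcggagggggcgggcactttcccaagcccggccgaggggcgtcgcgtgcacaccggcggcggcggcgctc
Tcf21: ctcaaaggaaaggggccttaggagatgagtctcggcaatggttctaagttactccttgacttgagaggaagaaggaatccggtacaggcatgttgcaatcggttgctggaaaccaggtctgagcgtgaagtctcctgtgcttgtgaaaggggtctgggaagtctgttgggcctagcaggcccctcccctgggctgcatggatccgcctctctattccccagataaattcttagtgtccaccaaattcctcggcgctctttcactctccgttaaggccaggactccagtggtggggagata
Counted from the annotated start as 0, the Cyp8b1 window holds the HNF4 letters from position -67 and a TATA box from -31. C/EBP letters begin at -75 and -4 in Slc10a1, at -80 in Fgb and at -8 in Akr1d1, and a TATA box begins at -19 in Cyp2c29. The windows of Apoa1, Reln and Tcf21 have no such match. The GC content is 80.7% in the Reln window, 53.3% in that of Tcf21 and 35.3% in that of Cyp2c29.

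The nuclei behind the knockout list held 83996145 fragments in 5339 nuclei, and those behind the wild-type list 40858512 in 5828 nuclei, a ratio of 2.06. Of the fragments, 46.0% lay in peaks in the knockout and 33.7% in the wild type. The knockout list was longer, with 106319 peaks against 72302. The part of these differences in depth in the knockout-only promoter peaks was not tested. Cutting the knockout list to its widest 72302 peaks, called the length-matched list below, left 2060 of them. That cut matches the number of peaks and not the depth. Peaks were called over all nuclei of a library, so more nuclei of a cell type and a more open promoter in each nucleus cannot be told apart. The tissue label was set beside 30 hepatocyte markers, the same list that is described below. All 30 had a promoter peak in the knockout list, and 7 had one in the wild-type list, which held no peak of any kind for 12 of them, Alb among these. The wild-type list thus lacked a promoter peak at most of these markers. This is no independent check, since the rule uses the same peaks and the markers were chosen with earlier results of these data known. Mertk itself had 1 promoter peak in each list and is no member. A promoter peak does not check the knockout, since the labels do not say what was deleted.

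The peaks were ordinary in size, and most lay well away from any wild-type peak. Their median width was 862 bp (quartiles 798 and 899, range 250 to 1514), against 884 bp for the 13750 knockout promoter peaks that overlap a wild-type peak. They covered an annotated start site in 71.1% of cases, against 91.3% of the overlapping ones. By chromosome they made up from 17.6% (chromosome 11) to 24.4% (chromosome 1) of the knockout promoter peaks, and 0 of 4 on chromosome Y. The gap to the nearest wild-type peak had a median of 7.03 kb (quartiles 1.75 and 29.7 kb). It was under 500 bp for 439 peaks (12%), from 500 bp to 5 kb for 1142 (31.1%), from 5 to 50 kb for 1445 (39.4%) and at least 50 kb for 643 (17.5%). The members just inside the rule were those of Rara, a retinoic acid receptor, whose peak at chr11:98960376-98961040 directly adjoined a wild-type peak, and of Apoc2, F730035P03Rik, Fam107b and Zfp362, with gaps of 3, 4, 5 and 5 bp. The promoter peaks just outside belonged to Dtx3 with F420014N23Rik and to Abi3 with Gngt2, which overlapped a wild-type peak by 1 bp each, to B3gnt5 by 2 bp, to Bmper by 5 bp and to Tpd52 by 6 bp.

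**Figure D1:**
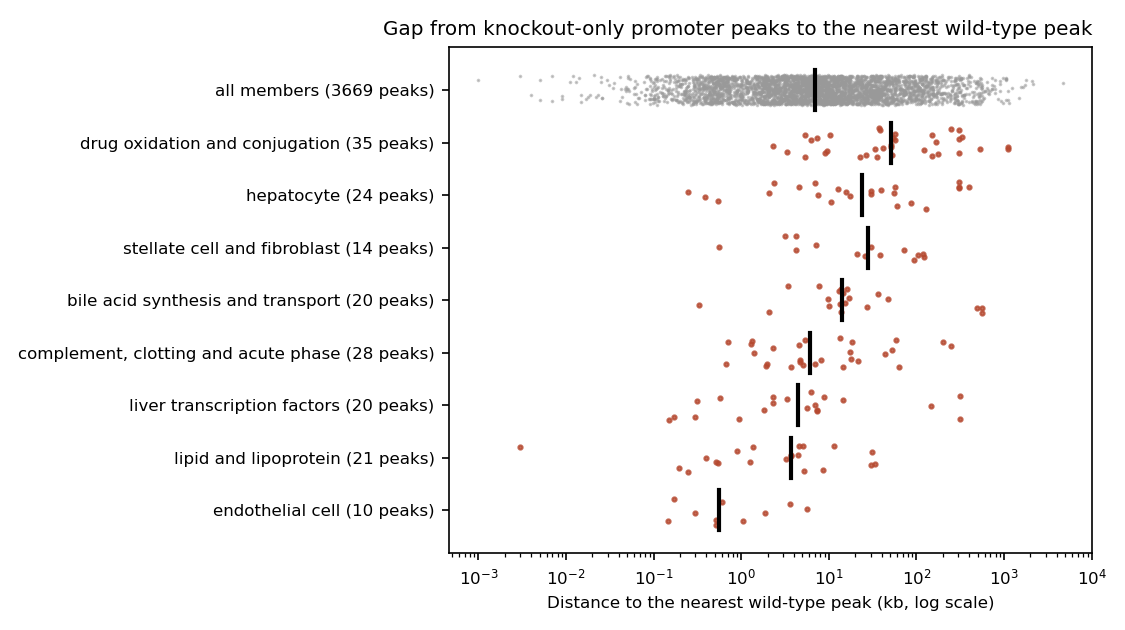
Distance from each knockout-only promoter peak to the nearest wild-type peak (x axis, kb, log scale) for all 3669 peaks and for the peaks at genes of 8 lists, 1 point per peak, with bars at the medians; the peak with a gap of 0 bp is drawn at 1 bp. The median is 7.03 kb over all peaks, 51.6 kb for the drug oxidation list and 0.561 kb for the endothelial list.

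The genes behind these peaks differed in how much wild-type signal remained around them. Of the 3425 genes, 819 (23.9%) had another promoter peak in the wild-type list, so the knockout-only peak was an additional one. The other 2606 (76.1%) had no wild-type promoter peak. Among these, 1587 still had a wild-type distal peak, and 1019 had no wild-type peak of any kind. Protein-coding genes made up 70.3% of the member genes and 84.4% of the other genes with a knockout promoter peak, and long non-coding RNA genes 16.5% and 8.5%, by the RefSeq gene table, in which 12.7% and 6.89% of the genes had no match. Predicted, clone-named and opposite-strand genes were 1034 of the 3425 (30.2%) against 3239 of all 17006 (19%). Without them, 2391 of 13767 genes (17.4%) had a knockout-only promoter peak.

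Hepatocyte markers were among the lists with the highest share of such genes. Of 30 markers, 23 had a knockout-only promoter peak, 22 of these had no wild-type promoter peak, and 0 of 30 had a promoter peak found in the wild-type list alone. Alb, the gene of serum albumin, had its peak at chr5:90460378-90461247, 39.2 kb from the nearest wild-type peak. Gc, the gene of vitamin D binding protein, had a peak at chr5:89457390-89458237 with a gap of 394 kb, and 20 knockout peaks but 0 wild-type peaks were assigned to the gene. Cps1, the entry enzyme of the urea cycle, had a gap of 60.4 kb, and Mat1a, which makes S-adenosylmethionine in the adult liver, 54.9 kb. The secreted protease inhibitors Serpina1a, Serpina1c and Serpina3k had gaps of 128, 86.5 and 12.7 kb, and the plasma protein fetuin-A gene Ahsg 29.9 kb.

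Other hepatocyte markers had wild-type peaks close by. The Apob peak, at the gene of the main structural protein of very low density lipoprotein, ended 0.247 kb from a wild-type peak, and the Apoa1 peak 0.539 kb from one. Hpd and Tdo2, which break down tyrosine and tryptophan, and Hamp, which encodes the iron regulator hepcidin, had gaps of 2.37, 6.94 and 7.49 kb. Tat, a tyrosine-degrading enzyme, was the marker with a further promoter peak in the wild-type list. Ttr, the gene of the thyroid hormone carrier transthyretin, had a knockout-only promoter peak although it had 4 wild-type peaks against 3 knockout peaks, all 4 of them distal. The 7 markers that were no members, Apoh, Ass1, Arg1, Fga, Trf, Hnf4a and Hal, had a knockout promoter peak that overlapped a wild-type peak. Arg1 had no wild-type promoter peak by annotation, but its knockout promoter peak overlapped a wild-type peak that carried no promoter line.

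**Figure D2:**
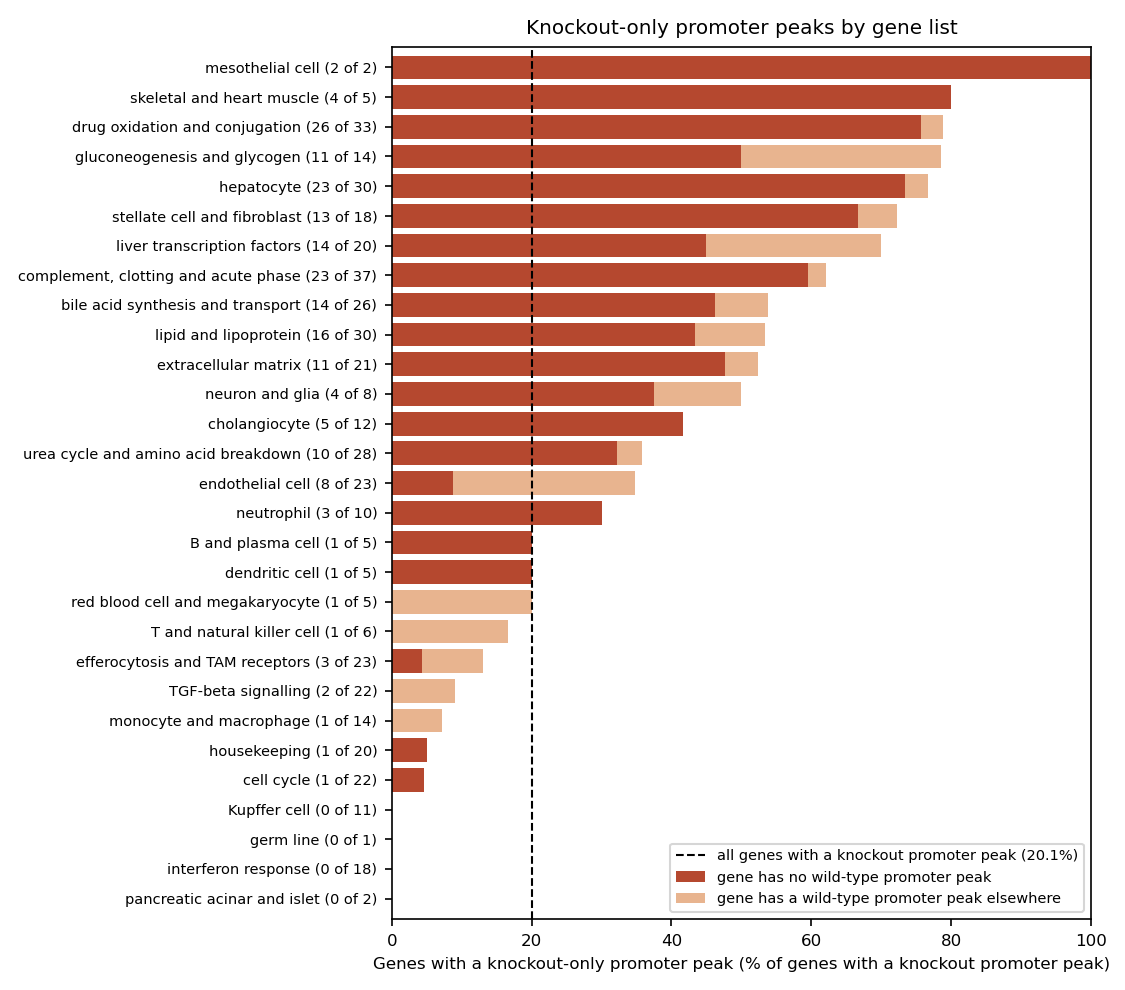
Genes with a knockout-only promoter peak as a percentage of the genes with any knockout promoter peak, for each gene list (numbers in brackets); dark bars are genes with no wild-type promoter peak, light bars genes with a wild-type promoter peak elsewhere, and the dashed line is the 20.1% over all genes. Far to the right of the line lie, among others, the mesothelial (2 of 2), muscle (4 of 5), drug oxidation, gluconeogenesis, hepatocyte and stellate lists. Kupffer, interferon, cell cycle and housekeeping lists are among those to its left.

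Bile acid genes were spread over synthesis, conjugation and transport. Of 26 genes with a knockout promoter peak, 14 had a knockout-only one, and 12 of these had no wild-type promoter peak. Among the enzymes of synthesis, Cyp7a1, the rate-limiting enzyme, had its peak 26.9 kb and Cyp8b1, which adds the hydroxyl group that makes cholic acid, 2.09 kb from the nearest wild-type peak. Akr1d1, a reductase of the same pathway, had a gap of 48 kb and Acox2, a peroxisomal oxidase, had 2 peaks with gaps of 13.8 and 15.4 kb. The conjugating enzymes came next: Slc27a5, the bile acid ligase, had 2 knockout-only promoter peaks, and Baat, which couples bile acids to taurine and glycine, had 4 in chr4:49503113-49507706, with gaps of 13 to 16.8 kb.

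Transporters on both faces of the hepatocyte were also members. Uptake was represented by Slc10a1 (gap 13.4 kb), Slco1a4 (487 kb) and Slco1b2, with 2 peaks 553 and 557 kb from any wild-type peak. Export into bile was represented by Abcb11, the bile salt export pump (36.7 kb), and Abcc2 (3.43 kb). Of the regulators, Nr1h4 encodes the bile acid receptor FXR, Nr0b2 its target SHP, and Klb the co-receptor for the gut hormone that represses Cyp7a1. Nr1h4 and Nr0b2 each kept a wild-type promoter peak elsewhere, and Klb did not. Solute carriers as a whole family, which move small molecules across membranes in every tissue, gave 85 of 279, for example Slc1a6, a glutamate transporter (179 kb), and Slc47a2, a drug exporter (5.57 kb). The bile acid list lost genes when the knockout list was cut to the widest 72302 peaks, from 14 to 7. Among the list's genes that were no members were Cyp27a1, Cyp7b1, Abcb4 and Fgfr4, each with a promoter peak in both lists; they were picked after their values were seen.

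Many, but not all, drug-metabolising enzymes had no wild-type promoter peak. Of 33 genes of drug oxidation and conjugation, 26 had a knockout-only promoter peak, and 23 of the 26 had no wild-type peak of any kind. The median gap of their 35 peaks was 51.6 kb. Families of such enzymes gave 38 of 58 cytochrome P450 genes, 14 of 15 UDP-glucuronosyltransferase genes, which attach a sugar acid to drugs and bilirubin, 12 of 13 sulfotransferase genes and 13 of 15 carboxylesterase genes. Glutathione transferases gave 7 of 20 (35%) and aldehyde and alcohol dehydrogenases 7 of 22 (31.8%), and 15 and 16 genes of these families had a wild-type promoter peak. Median gaps were 50.8 kb for the P450 family, 102 kb for the glucuronosyltransferases, 44.9 kb for the carboxylesterases and 731 kb for the sulfotransferases. Cyp2e1, which oxidises ethanol and paracetamol, had its peak at chr7:140763203-140764118 (gap 57.4 kb), and Cyp3a11, a drug-inducible P450, at chr5:145880932-145881812 (gap 305 kb). Adh4 and Aldh1a1, which oxidise alcohols and aldehydes, had gaps of 26.8 kb and of 57.1 and 166 kb. The receptors that switch on these enzymes, Nr1i2 and Nr1i3, had 2 knockout-only promoter peaks each.

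All 5 major urinary protein genes with a promoter peak in either list, which encode pheromone carriers made in the liver, had a knockout-only one. Mup16, Mup20, Mup21 and Mup22 had gaps of 656, 122, 25.5 and 893 kb. Several of these families differ between male and female mouse liver, and the labels do not give the sex. Peaks on chromosome Y were called in both lists, 22 for wild type and 29 for the knockout. Members of the Cyp2c, Ugt2b, Sult2a, Ces1, Mup and Serpina1 groups are near-identical copies in places. The sources used here do not say how reads that match several copies were treated, so counts of these genes are less certain than those of single-copy genes.

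**Figure D3:**
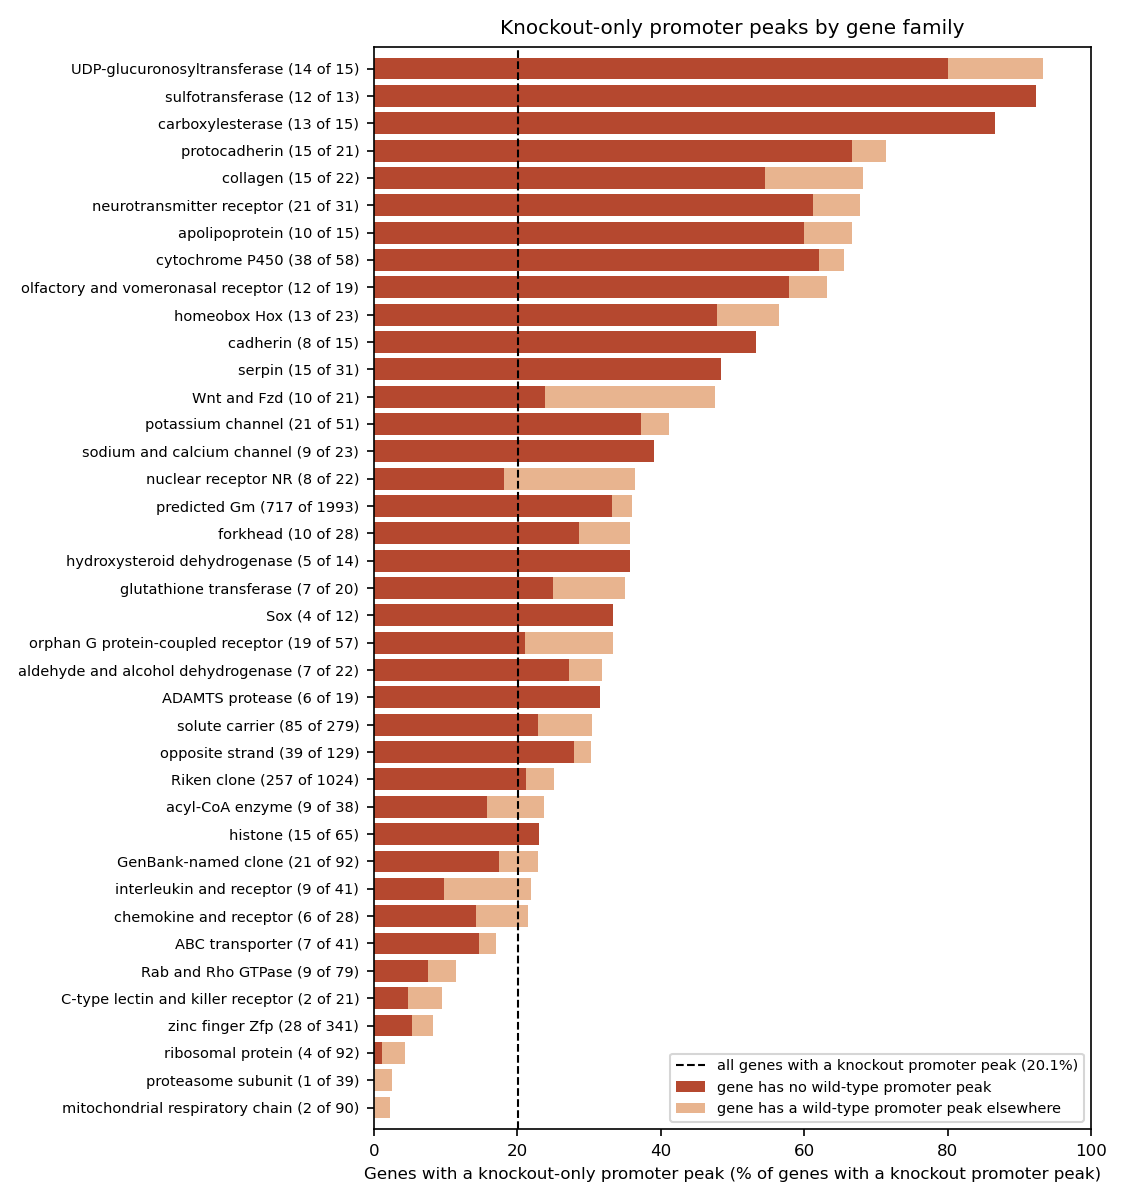
The same percentage for gene families and name classes with at least 10 genes that have a knockout promoter peak. Glucuronosyltransferases (14 of 15), sulfotransferases (12 of 13) and carboxylesterases (13 of 15) lie at the top, and ribosomal proteins (4 of 92), proteasome subunits (1 of 39) and respiratory chain genes (2 of 90) at the bottom.

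Secreted plasma proteins formed a further group. Of 37 genes for complement, clotting and acute phase proteins, 23 had a knockout-only promoter peak, and 22 of these had no wild-type promoter peak; in the length-matched list 15 were left. The fibrinogen chain genes Fgb and Fgg had gaps of 4.62 and 17.4 kb, while the third chain, Fga, had a promoter peak in both lists. Serpinc1, the gene of antithrombin, had a gap of 43.4 kb, Crp, C-reactive protein, 52.9 kb, and C8b, a part of the membrane attack complex, 62.8 kb. F9, the clotting factor missing in haemophilia B, had a peak 1.40 kb from a wild-type peak, and 5 wild-type peaks were assigned to the gene. Among serpins, the protease inhibitor family, 15 of 31 were members, including Serpina1d (218 kb), Serpina6, which carries corticosteroids in blood (112 kb), and Serpina7, which carries thyroid hormone (347 kb).

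Carbohydrate, lipid and amino acid metabolism took different shares. Of 14 genes of gluconeogenesis and glycogen 11 were members, among them the gluconeogenic enzyme genes G6pc (gap 10.6 kb), Pck1 (30.5 kb) and Fbp1 (7.05 kb), and the liver form of pyruvate kinase Pklr (22.8 kb). Of these 11 genes, 4 also had a wild-type promoter peak, Pcx among them. Of 30 lipid and lipoprotein genes 16 were members, and 9 in the length-matched list. Apoa2 had 2 knockout-only promoter peaks within 0.520 kb of a wild-type peak, and Apoa5 and Apoc3 had gaps of 3.72 and 4.52 kb. Apolipoprotein genes as a family gave 10 of 15. Of 28 genes of the urea cycle and amino acid breakdown 10 were members, closer to the 20.1% over all genes than the other lists of liver metabolism, and 6 in the length-matched list. They included Bhmt (23.7 kb), which uses betaine to remake methionine.

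Transcription factors that set up the hepatocyte programme were members too, though many of them had wild-type peaks nearby. Of 20 such genes 14 had a knockout-only promoter peak, 9 of them with no wild-type promoter peak, and 5 of the 14 were left in the length-matched list. Foxa1, a pioneer factor that opens liver chromatin, had 2 peaks with gaps of 314 and 316 kb and 9 knockout peaks against 0 wild-type peaks. Foxa2 had 2 peaks at 0.955 and 1.82 kb and Foxa3 1 at 0.150 kb. Nr5a2, a regulator of bile acid synthesis, had 2 peaks at 2.28 and 6.96 kb. Onecut2 had a gap of 148 kb, and Gata4 had 2 peaks at 0.173 and 5.57 kb. Cebpb, Rxra and Prox1 each had a wild-type promoter peak as well and gaps of 0.293, 0.316 and 0.578 kb. Hnf4a and Ppara, also on the list, had a promoter peak in both lists and were no members.

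**Figure D4:**
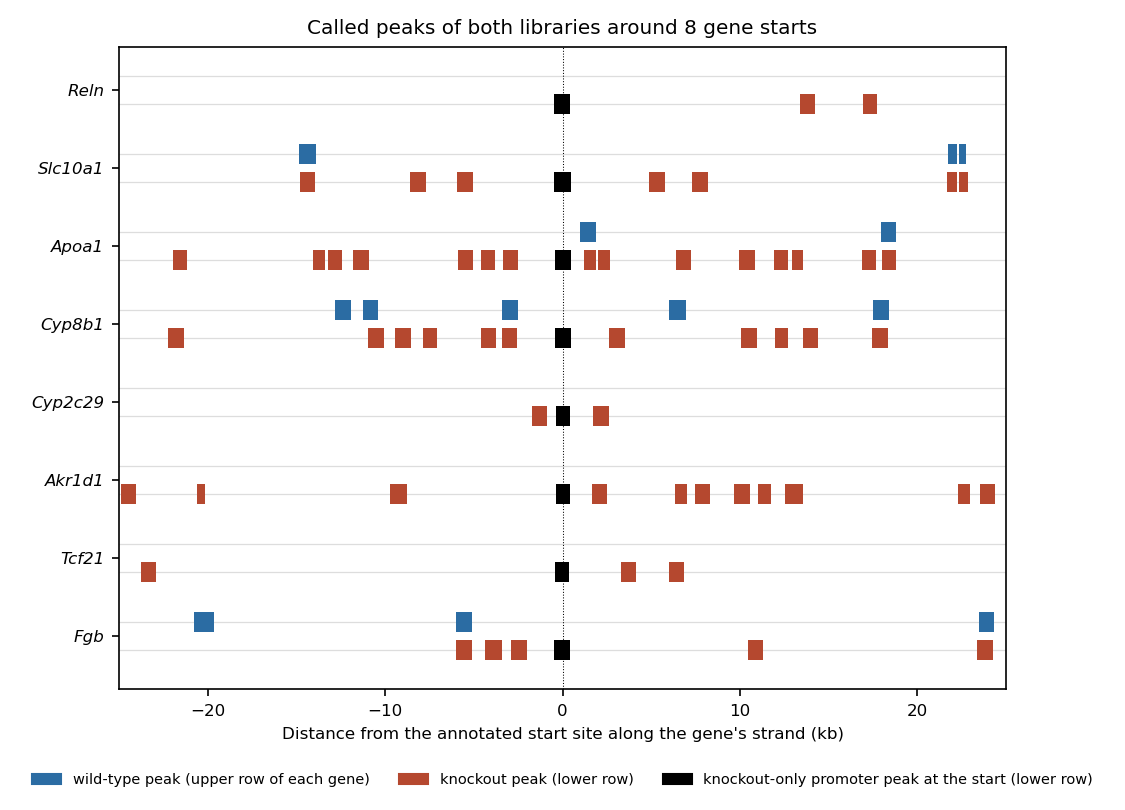
Called peaks within 25 kb of 8 gene starts (x axis, kb along the gene's strand; peaks drawn to scale), with wild-type peaks in the upper and knockout peaks in the lower row of each gene and the knockout-only promoter peak in black. Akr1d1 has 0 wild-type and 12 knockout peaks in its window, Apoa1 2 and 16, Cyp8b1 5 and 12, and Reln 0 and 3.

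Stellate cell and fibroblast markers gave 13 members of 18 genes, 12 of them with no wild-type promoter peak, and 7 in the length-matched list. Reln, a secreted glycoprotein of quiescent stellate cells, had its peak at chr5:22344264-22345172 with a gap of 119 kb. Lrat, the enzyme that stores retinol as esters, had a gap of 94.5 kb, Rgs5, a pericyte marker, 123 kb, and Tcf21, a mesenchymal transcription factor, 72.1 kb. The collagen gene Col1a2, the matrix proteoglycan gene Dcn and the desmin gene Des had gaps of 38.5, 105 and 21.1 kb. Pdgfra, a growth factor receptor of fibroblasts, had 2 knockout-only promoter peaks and kept a wild-type promoter peak elsewhere, while Vipr1 lay 0.563 kb from a wild-type peak. Pdgfrb, Ngfr and Gdf2, the gene of the ligand BMP9, had gaps of 4.25, 7.08 and 26.1 kb. The markers Tagln, Lhx2, Ecm1, Hgf and Postn had promoter peaks in both lists and were no members. Hgf had 14 wild-type peaks against 10 knockout peaks. Col1a1, Col3a1, Lum, Acta2, Hand2 and Thy1 had no promoter peak in either list and could not be members.

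Extracellular matrix genes gave 11 members of 21, of which 3 were left in the length-matched list. Collagens as a family gave 15 of 22, including Col6a2 (gap 79.5 kb), Col6a6 (165 kb) and the basement membrane chain Col4a3 (31.5 kb). Among the enzymes that build or cut matrix were Loxl1, a crosslinker of elastin (30.5 kb), Mmp2 (3.90 kb), Mmp14, which activates Mmp2 (2.90 kb), and Adamts5, which cuts proteoglycans (96.0 kb). TGF-beta signalling, the main fibrogenic pathway, was represented by 2 of 22 genes, Ltbp4 and Inhbb, and each of them also had a wild-type promoter peak.

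Markers of ducts, vessels and the liver surface also gave shares above the 20.1% over all genes, on small numbers. Cholangiocyte markers gave 5 of 12 (41.7%): Krt8 and Krt18, keratins that hepatocytes also express (gaps 0.563 and 4.71 kb), Sox9 (226 kb), Pkhd1, the gene of a cilium protein of bile ducts (185 kb), and Onecut1 (8.75 kb). The duct keratins Krt7 and Krt19 had no promoter peak in either list, and Epcam had one in both. Endothelial markers gave 8 of 23 (34.8%), 6 of them with a wild-type promoter peak as well, and their median gap was 0.561 kb. Pecam1 and Tek, receptors of vessel walls, and Wnt2 and Wnt9b, the signals by which liver endothelium zones hepatocytes, lay 0.513, 0.514, 0.609 and 0.145 kb from wild-type peaks. Rspo3, which strengthens Wnt signals, and Vwf, the clotting factor carrier, had no wild-type promoter peak. In the length-matched list 2 cholangiocyte and 4 endothelial genes were left. Of 10 mesothelial markers, 2 had a knockout promoter peak, Bnc1 and Cdh3. Both were members, with gaps of 57.4 and 0.053 kb, and 1 was left when wild-type peaks within 500 bp counted as overlapping. Msln, Upk1b, Upk3b, Wt1, Lrrn4, Gpm6a, Krt14 and Muc16 had no promoter peak in either list.

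Immune gene lists differed among themselves. Kupffer cell markers gave 0 of 11 and interferon response genes 0 of 18. Monocyte and macrophage markers gave 1 of 14, Adgre1, whose 490 bp peak lay 0.111 kb from a wild-type peak and came beside another promoter peak present in the wild-type list. Neutrophil markers gave 3 of 10 (30%): Camp and Elane, genes of granule proteins, and Lcn2, which is also an acute phase gene of hepatocytes. The T and natural killer cell list gave Prf1, the B cell list Cr2, the dendritic cell list Flt3 and the red blood cell and megakaryocyte list Tal1, 1 gene each of 6, 5, 5 and 5. In the same order, 11, 7, 5 and 5 genes of these lists had a wild-type promoter peak. For 6, 3, 3 and 1 genes a promoter peak was found in the wild-type list alone. The same held for 3 monocyte and macrophage, 2 neutrophil, 1 Kupffer cell and 1 interferon response gene. Interleukin and interleukin receptor genes gave 9 of 41 (22%) and chemokine and chemokine receptor genes 6 of 28 (21.4%), near the share over all genes. C-type lectin and killer receptor genes gave 2 of 21 (9.52%), and 12 genes of that family had a promoter peak found in the wild-type list alone. With no test between the lists, the member counts stand beside the 20.1% over all genes as a description. Counts for the wild-type list alone stand beside 6.29% of all genes with a wild-type promoter peak.

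Efferocytosis, the uptake of dying cells in which Mertk acts, gave 3 of 23 genes, a share below the 20.1% over all genes. Of these 3 genes, 1 was left in the length-matched list. Adgrb1, a phosphatidylserine receptor better known from brain, had its peak at chr15:74563141-74564124, 108 kb from any wild-type peak, with 8 knockout peaks and 0 wild-type peaks. Itgb5, an integrin subunit that binds bridging proteins on dying cells, and Elmo2, a partner of the Rac activators, had gaps of 0.571 and 0.237 kb and wild-type promoter peaks elsewhere. The TAM receptor genes Mertk, Axl and Tyro3 and the ligand gene Gas6 had promoter peaks in both lists.

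Genes of other organs and of development were also found. Of 31 neurotransmitter receptor genes 21 were members, for example Adra1b, a hepatocyte adrenergic receptor (2 peaks, gaps 8.54 and 54.2 kb), and the glutamate receptor subunits Gria3 and Grik4 (10.4 and 11.5 kb). Protocadherins, adhesion molecules best known from neurons, gave 15 of 21, and 8 of these 15 come from the clustered alpha and gamma genes, where each variable exon has its own promoter. Hox genes, which set position along the body axis, gave 13 of 23, 10 of them with no wild-type peak of any kind, and Wnt ligand and receptor genes 10 of 21. Potassium channels gave 21 of 51, among them Kcnb2 (462 kb), and forkhead factors 10 of 28, among them Foxd1 (36.5 kb) and Foxp2 (278 kb). Sox2, a stem cell factor, had a gap of 568 kb, and Sox5 340 kb. Of 14 muscle markers, 5 had a knockout promoter peak, and 4 of these 5 were members, Actc1, Tnnt2, Ttn and Ryr2. Of 18 neuron and glia markers, 8 had one, and 4 of these 8 were members, among them Slc17a7, Gad2 and Dlg4. Of 14 pancreatic and 14 germ line markers, 2 and 1 had a knockout promoter peak, and 0 were members. Most markers of these organs thus had no knockout promoter peak, and the shares rest on small numbers beside the 20.1% over all genes. Olfactory and vomeronasal receptors gave 12 of 19, while 8 genes of that family had a promoter peak in the wild-type list alone.

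Genes used by every cell were rarely members. Ribosomal protein names gave 4 of 92, of which Rpl36, Rps10 and Rps3 kept a wild-type promoter peak and the fourth, Rps6ka6, encodes a kinase. Proteasome subunits gave 1 of 39, Psmd9, respiratory chain genes 2 of 90, Atp5g2 and Ndufaf4, and Zfp-named zinc finger genes 28 of 341. Histone genes gave 15 of 65, closer to the share over all genes. The cell cycle list gave E2f1, 1 of 22, and the housekeeping list Actb, 1 of 20. The Actb peak lay 0.230 kb from a wild-type peak, and 9 knockout and 7 wild-type peaks were assigned to the gene.

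Some of the peaks came in unbroken series. How long runs would be at the overall share of 21.1% was not worked out. Neighbouring peaks of 1 gene, as at Fgf1 and Baat, count separately in a run. Ordered along the genome among all knockout promoter peaks, 1857 members (50.6%) stood alone between promoter peaks that overlap a wild-type peak or a chromosome end, and 237 (6.46%) stood in 39 runs of at least 5 members in a row. The minimum of 5 and the genes named from runs were chosen after the values were seen. The longest run held 13 peaks at 9 Cyp2c genes, from Cyp2c29 to Cyp2c70, over chr19:39285372-40187836, a span of 902 kb with 33 knockout peaks and 0 wild-type peaks. The next held 11 peaks at 10 Ugt2b, Ugt2a and Sult1 genes over chr5:86906551-87592265, with 49 knockout and 0 wild-type peaks in 686 kb. Serpina1 and its neighbours on chromosome 12 gave 7 peaks with 38 against 0, and the Sult2a genes on chromosome 7 gave 6 with 22 against 0.

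Runs with wild-type peaks inside them were found at other liver gene clusters. The Ces1 genes with Mmp2 and Lpcat2 gave 10 peaks in a span with 44 knockout and 11 wild-type peaks, and Ahsg, Fetub, Hrg and the kininogen genes, which encode plasma proteins, gave 8 in a span with 34 and 5. The Mup cluster held 57 knockout peaks and 1 wild-type peak. The apolipoprotein cluster of Apoa1, Apoc3, Apoa4 and Apoa5 spanned 44.1 kb with 16 and 4, and the alcohol dehydrogenase cluster 175 kb with 27 and 1. The Hoxd cluster, from Hoxd10 to Hoxd1, was a run without liver enzymes: 7 peaks lay in 72.5 kb, with 8 knockout peaks and 0 wild-type peaks.

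Size and isolation picked out other genes. Among the widest members with a named gene were those of Acoxl, an acyl-CoA oxidase relative (1181 bp), Hoxd8 (1167 bp), Armh4 (1157 bp) and Alk, a receptor tyrosine kinase (1155 bp), followed by Scg5, Arhgap6, Fgf2, Dbndd1 and Pnma2 down to 1114 bp. The member farthest from any wild-type peak, 4716 kb, belonged to a predicted gene. Without predicted and clone-named genes, those farthest belonged to Pabpc5 (2160 kb), Naaladl2 (2080 kb), Cdh18 (1550 kb), Pou3f4 (1500 kb), Zfp804a (1230 kb), Sult2a7 (1150 kb), Sult2a8 (1100 kb), Nkain2 (1060 kb), Pcdh10 (1060 kb) and Bche (1050 kb), the last a serum esterase made by hepatocytes. Single genes had up to 4 members. The 6 genes with 4 were Ank3, Baat, Fgf1, Pik3c2g, Plec and Shroom3. Pik3c2g, a lipid kinase of liver, had its 4 peaks 256 to 292 kb from any wild-type peak, whereas those of Plec, the cytoskeletal linker plectin, lay 0.041 to 0.867 kb from one and came beside 4 wild-type promoter peaks.

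Among the promoter windows that could be matched to a peak, those of the members were poorer in CpG than those of the overlapping promoter peaks. RefSeq windows with their start inside a peak were found for 1559 of the 3669 members (42.5%), 1802 windows in all, and for 9596 of the 13750 overlapping knockout promoter peaks (69.8%), 12164 windows. Because fewer than 80% of the members and of the overlapping peaks had a window, the check is void for both sets at large. The values describe these windows alone. The observed to expected CpG ratio sets the number of CG pairs against that given by the C and G content. Its median was 0.430 in the member windows (quartiles 0.223 and 0.691), 0.788 in the overlapping ones and 0.384 over all 32851 promoter windows of the table. It lay under 0.6 in 67.1%, 24% and 64.2% of them.

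**Figure D5:**
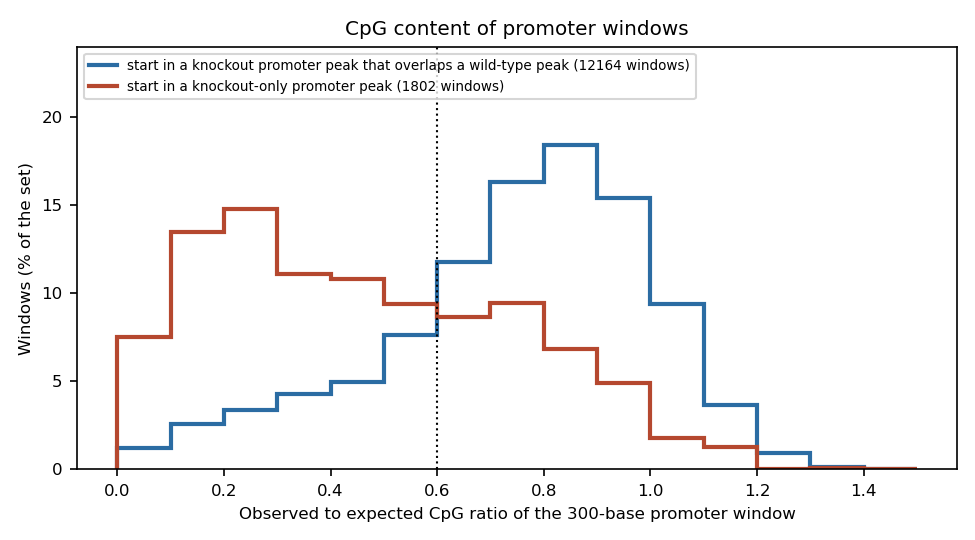
Observed to expected CpG ratio (x axis) of 300-base promoter windows as a percentage of each set (y axis), for 1802 windows that start in a knockout-only promoter peak and 12164 that start in a knockout promoter peak overlapping a wild-type peak; the dotted line marks 0.6. The member windows peak below the line, with 67.1% under it, and the overlapping ones above it, with 24% under it.

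Gene groups among the members differed in this respect. For genes of 7 lists of liver function (hepatocyte, bile acid, urea cycle, gluconeogenesis, lipid, drug and plasma protein lists), 80 of 109 member genes had a window (73.4%), and 85 of their 86 windows lay under 0.6, with a median of 0.194. With fewer than 80% of the genes matched, these values describe the matched genes alone. The drug oxidation list, where 84.6% of the genes had a window, had a median of 0.130, the sulfotransferase family (83.3%) 0.129 and the apolipoprotein family (90.0%) 0.227. Windows of 6 member Hox genes had a median of 0.861, those of Wnt genes 0.940 and those of neurotransmitter receptors 0.662, with 46.2%, 50% and 61.9% of the genes matched, so these are values of the matched genes alone. The stellate list, with 10 of 13 genes matched (76.9%), had a median of 0.424 among the matched genes alone, and 6 of its 10 windows lay under 0.6. Its printed windows differ, with a ratio of 1.01 for Reln and 0.378 for Tcf21, and the Cyp2c29 window has 0.217.

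Motif letters were counted in the same windows on both strands, without masking hits that overlap one another. The motif CAAAGTCCA of the hepatocyte factor HNF4 was found in 1.89% of member windows, 0.28% of overlapping windows and 0.475% of all windows. TTGCNNAA, the motif of C/EBP, was found in 13.5%, 7.93% and 10.8%. TATAAA, the TATA box, was found in 12.1%, 5.98% and 13.6%. AP-1 letters (TGANTCA) gave 9.77%, 4.59% and 7.81%, and FOXA letters (TGTTTAC) 3.77%, 2.51% and 3.65%. Because the sets differ in base composition, the windows under a CpG ratio of 0.6 were also taken alone. There HNF4 gave 2.65% of member, 0.549% of overlapping and 0.635% of all windows, and C/EBP 18.5%, 13.2% and 13.2%. TATA gave 13.6%, 9.30% and 17.9%, so that members lay above the overlapping windows but below all windows of the table. In the other, CpG-rich windows, members were lowest for C/EBP (3.37% of member, 6.27% of overlapping and 6.5% of all windows). The same held there for FOXA (1.69%, 2.21% and 2.56%). Members were highest there for TATA (9.11%, 4.93% and 5.98%) and AP-1 (4.22%, 3.16% and 3.46%). HNF4 gave 0.337%, 0.195% and 0.187% there, too few windows to rank. At any CpG ratio, 34 of the 1802 member windows held the HNF4 letters.

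Several motifs were less frequent in the member windows than in the overlapping ones. The ETS letters CCGGAAGT were found in 1.17% of member windows, 8.91% of overlapping and 3.89% of all windows. Among CpG-poor windows they were found in 0.827% of members and 4.12% of overlapping ones, and among the remaining, CpG-rich windows in 1.85% and 10.4%. YY1 letters (AAGATGGCG) gave 0.277%, 3.29% and 1.40% over members, overlapping and all windows, and NRF1 letters (GCGCATGCG) 0.888%, 3.95% and 1.75%. SP/KLF letters (GGGGCGGGG) gave 13.2%, 23.2% and 11.4%. Among CpG-poor windows they were found in 6.7% of members and 11.6% of overlapping ones, and among CpG-rich windows in 26.5% and 26.9%. PU.1 (GAGGAAGT), a factor of macrophages whose letters share GGAAGT with the ETS motif, gave 1.61%, 3.43% and 3.20%. NF-Y (CCAAT) gave 35.1%, 38.2% and 37.4%, and the E-box (CACGTG) 7.05%, 10.7% and 7.15%. The other motifs searched were more frequent in member than in overlapping windows but near the share over all windows, RUNX (TGTGGT) at 15.9%, 11.7% and 16.8%, and TEAD (GGAATG) at 15.8%, 10.9% and 14.7%. A match describes letters and not a bound site.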

How the data were processed

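Open chromatin peaks of 1 wild-type and 1 Mertk knockout liver library were used. Per the file headers, each library was processed alone with cellranger-arc 2.0.2 on mm10, peak calling included. The deposited lists give positions without height or score. The deposited annotation labels peaks as promoter or distal, by a rule that no source used here states. The depth comes from the deposited per-barcode counts of ATAC fragments, which are raw. No gene expression matrix was used.

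Peaks on other contigs (43 wild-type, 44 knockout) were left out. Overlaps were computed in Python 3.11.15 with numpy 2.4.6 and pandas 2.3.3, tested on simulated peaks, and checked against bedtools 2.31.1, with equal counts. Figures used matplotlib 3.10.9. Sequences are RefSeq promoter windows of GRCm38.p6, used in place of planned windows around peak centres because no genome was used here. The choice of 14 motifs was settled after first counts had been seen.

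The peaks, the 29 gene lists (580 distinct genes) and the 44 name patterns for families were chosen with earlier results of these data known. Genes were named from these sets: list genes with a member in the hepatocyte, stellate, bile acid, efferocytosis and liver transcription factor lists, up to 8 genes with the widest members in each other list and up to 4 in each family, the 10 widest and 10 farthest members, the 10 genes with most members, and 5 peaks on each side of the rule. Predicted, clone-named and opposite-strand genes were named only at that edge. Genes named as not being members were chosen after their values were seen. Some genes that fall under it are summarised in the counts alone. Families leave out opposite-strand transcripts that carry a family name. With 1 library per genotype no test was possible. The alternatives were 7 planned ways to set overlap, peaks or genes, and 1 for the sequence windows added after the data were seen.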

Additional observations from a re-analysis of the deposited data

How the results depend on the processing

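The lists give no score, so the knockout list was shortened by width. The widest 72302 knockout peaks were kept, as many as the wild-type list holds (width at least 851 bp). This left 2060 knockout-only promoter peaks (17.0% of promoter peaks) and 1705 genes without a wild-type promoter peak. Whether width follows peak strength was not tested. The cut lies near the median widths of members (862 bp) and of overlapping promoter peaks (884 bp), so it cannot stand for a stricter threshold. Counting wild-type peaks within 500 bp as overlapping gave 18.5%, and asking a wild-type peak to cover 50% of the knockout peak gave 21.8%. Without predicted, clone-named and opposite-strand genes the share was 17.8%, with 1676 genes without a wild-type promoter peak. The hepatocyte count of 23 ranged from 16 to 24 over the 7 alternatives.

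Of the 28 other list counts, 14 moved by more than 1.5 times with the widest peaks, all of them to lower counts, among them stellate (7), bile acid (7), urea cycle (6), lipid (9), complement (15), liver transcription factors (5), extracellular matrix (3), endothelial (4) and cholangiocyte genes (2). The 500 bp setting moved 4, all lower, and comparing with wild-type promoter peaks alone moved 1, TGF-beta signalling, to 4. With sequence windows lying wholly in the peak, chosen after the data were seen, 27 of 30 values stayed within their 95% binomial interval, and 3 moved, all in the overlapping set: ETS to 9.44%, SP/KLF to 24.1% and the CpG-poor share to 22.0%. Whole-peak sequences were not analysed here. No paired analysis was possible because the genotypes have 1 library each, and for the same reason no library could be left out. Fragments in nuclei differed 2.06-fold, and the share of them in peaks was also higher in the knockout, 46.0% against 33.7%. Thinning the deeper library needs fragments that were not used here.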
